A study of Homo sapiens with 6 samples.

Results

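Sites where the glucocorticoid receptor (GR) was found after dexamethasone in every ChIP-seq peak list of one cell line, and in no list of a second line that also has the mineralocorticoid receptor (MR), are described here. They were found by merging all peaks that overlap by 1 bp or more over the 6 dexamethasone lists. A merged site was kept when all 3 lists of the GR cell and none of the 3 lists of the MR/GR cell had a peak in it. This gave 15056 sites, 34.4% of the 43713 merged sites, and they are called GR-cell-only sites below. They were selected on the presence and absence of peaks in these 6 lists, so nothing that restates that presence is tested.

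The study mapped GR on the genome in 2 stable lines made from U-2OS, a human osteosarcoma line, to see what co-expressed MR does to GR binding. The groups used are the MR/GR cell with dexamethasone at 100 nM for 2 hr, the GR cell with the same treatment, the MR/GR cell with vehicle (DMSO), and the GR cell with vehicle. All groups share the U-2OS background and the same GR antibody, each had 3 numbered peak lists, and each receptor combination was represented by 1 line. The labels name both lines as made for the study and give neither the promoter that drives a receptor nor the level of either receptor. Whether the lists of a group came from separate cultures is not stated either, so the spread between lists may be technical.

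GR and MR are related steroid hormone receptors. Bound by hormone, they move into the nucleus and attach to DNA at hormone response elements, which both can recognise, as dimers or higher-order complexes. Dexamethasone is a synthetic glucocorticoid that activates GR strongly and MR more weakly. In U-2OS cells, a common model for GR because the parent line has little of its own, GR binds mostly at enhancers away from promoters.

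The lists hold a position per peak and no height or score, and the read depth behind them is unknown. Every peak of a list has the same width but 1, between 280 and 304 bp in the treated MR/GR cell and between 354 and 424 bp in the treated GR cell. The treated MR/GR-cell lists held 3713, 10459 and 6660 peaks, and the treated GR-cell lists 37650, 30912 and 26191. A site without an MR/GR-cell peak may therefore lie under a calling threshold that differs between lists. How much of the group of GR-cell-only sites comes from list length was not tested. No gene or sequence is given for a site, since neither a genome nor an annotation of the build of the lists (hg19) was used here.

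GR-cell-only sites were the most common kind of reproducible GR-cell site. They made up 65.6% (Wilson 95% interval 65.03 to 66.3) of the 22935 sites that every GR-cell list held. The rest were 4862 partly kept sites, with a peak in 1 or 2 MR/GR-cell lists, and 3017 core sites, with a peak in all 6 lists. GR-cell-only sites held 39.99%, 48.7% and 57.5% of the peaks of GR-cell lists 1, 2 and 3. Each of the 3 lists gave a single peak to each site. Sites in fewer GR-cell lists had no MR/GR-cell peak more often, in 90.3% of the sites of 2 GR-cell lists and 93.0% of the sites of 1 list. The reverse kind, in 3 MR/GR-cell lists and no GR-cell list, had 63 sites or 0.144% of all merged sites.

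**Figure D1:**
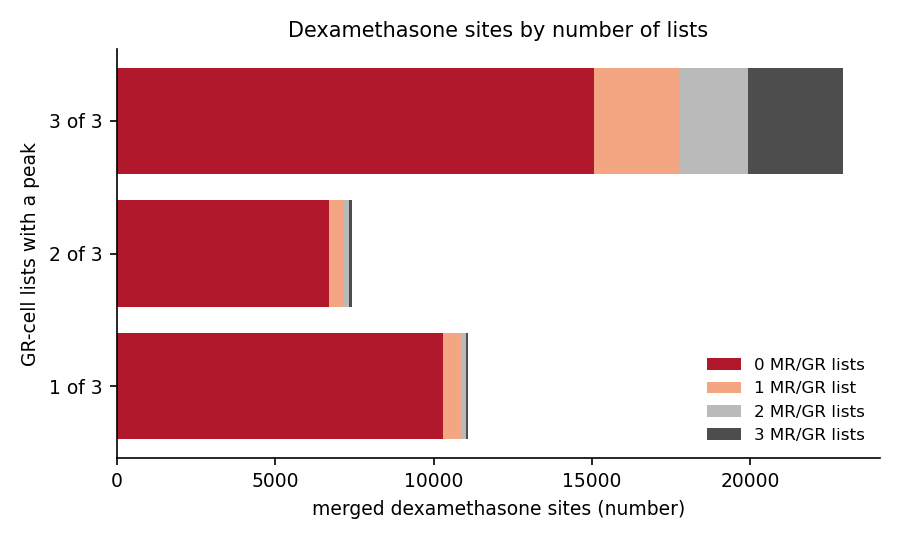
Number of merged dexamethasone sites (horizontal axis) by the number of GR-cell lists with a peak (rows), with colours for the number of MR/GR-cell lists. The red part of the top row is the 15056 GR-cell-only sites, and all 22935 sites in 3 GR-cell lists make up that row.

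The sites just outside the rule were unevenly spread over the lists. Of the 2712 sites in 3 GR-cell lists and exactly 1 MR/GR-cell list, list 2, the longest MR/GR-cell list, held 1993. List 3 held 651 and list 1, the shortest, held 68. On the other side, 6711 sites in no MR/GR-cell list missed 1 GR-cell list, which was list 3 for 4643 of them, list 2 for 1521 and list 1 for 547. Among MR/GR-cell lists the longest most often held the lone peak, and among GR-cell lists the longest least often lacked one. Just inside the rule, the 3 sites nearest to an MR/GR-cell peak were chr18:10101593-10102016, chr19:16404040-16404469 and chr15:91096535-91096958, in hg19 coordinates counted from 1. Only 8, 11 and 15 bp separated them from a peak of MR/GR-cell list 2. They were exceptions, as 78 of the 15056 sites (0.518%) had an MR/GR-cell peak centre within 1 kb.

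Each list was then set against the class given by the other 5, as a description of how far the rule rests on single lists. Sites with a peak in all 3 GR-cell lists and in neither of the other 2 MR/GR-cell lists were found in 0.450% of cases in MR/GR-cell list 1 (68 of 15124). They were found in 11.7% of cases in list 2 (1993 of 17049) and in 4.14% in list 3 (651 of 15707). Where both other MR/GR-cell lists had a peak, the list set apart had one at 61.3%, 97.7% and 94.5% of the sites for lists 1, 2 and 3. The order of the 3 lists was that of their length in both comparisons. List 1, the shortest, had a peak at 313 of the 4862 partly kept sites, and at all 3017 core sites by definition. For the GR cell, sites of the other 2 lists with no MR/GR-cell peak were found again at 96.5% in list 1, 90.8% in list 2 and 76.4% in list 3. Sites of the other 2 GR-cell lists with a peak in all MR/GR-cell lists were found again at 99.9%, 99.2% and 97.8%. GR-cell-only candidates were thus found again less often than core candidates in each GR-cell list, by the widest margin in list 3, the shortest.

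The positions of the GR-cell peaks varied more between lists at GR-cell-only sites. The median distance between the centres of GR-cell lists 1 and 2 was 28 bp at GR-cell-only sites, 22 bp at partly kept sites and 17 bp at core sites. Between lists 1 and 3 it was 32, 26 and 19 bp for the same 3 classes, and between lists 2 and 3 it was 31, 25 and 19 bp. The order was the same in the 3 pairs of lists. The difference between GR-cell-only and core sites averaged 12 ± 1 bp (SD over 3 pairs, which share lists). These are GR-cell lists alone, and all 3 classes have a peak in each of them, but the classes were set on the same lists and the difference is a description.

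**Figure D2:**
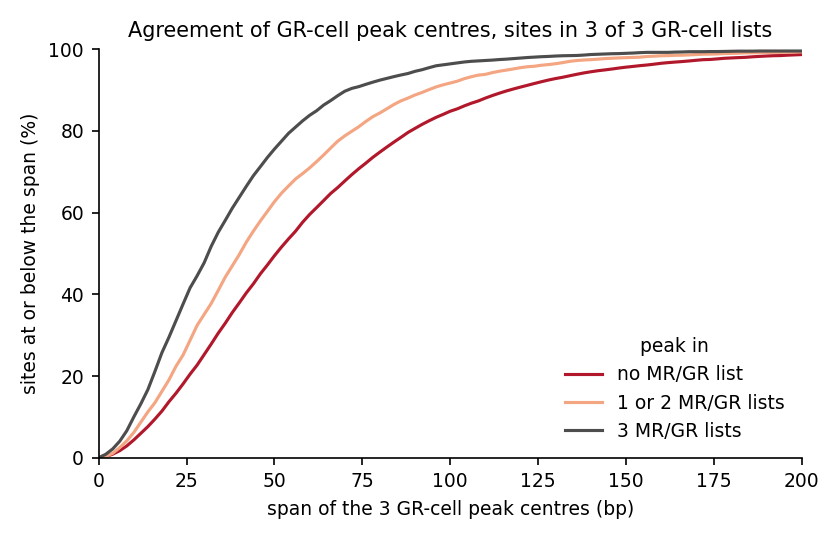
Share of sites (vertical axis, %) whose 3 GR-cell peak centres lie within a given span in bp (horizontal axis), for sites in 3 GR-cell lists and no, 1 or 2, or all 3 MR/GR-cell lists. At 50 bp the lines stand at 49.5%, 62.7% and 75.6%, with the GR-cell-only sites lowest.

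The 3 GR-cell centres of a site lay within 50 bp of each other at 49.5% of GR-cell-only sites (48.7 to 50.3), 62.7% of partly kept sites (61.3 to 64.0) and 75.6% of core sites (74.0 to 77.1). Read the other way, the share of GR-cell-only sites among reproducible GR-cell sites followed the span of the centres. It was 52.5% of the 3593 sites with a span under 20 bp and 59.1% from 20 to under 40 bp. It was 66.1% from 40 to under 60 bp, 73.1% from 60 to under 100 bp and 81.8% from 100 to under 200 bp. The 248 sites with a span of 200 bp or more stood at 81.5%. Core sites were 23.5% of the sites in the tightest bin and 3.77% from 100 to under 200 bp, and 5.24% in the last bin. When peaks shared a site only if their centres were within 100 bp, the difference of 12 bp became 10.7 bp.

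GR-cell-only sites stood farther from other GR sites than core sites did. The nearest other site in 3 GR-cell lists lay at a median of 30.5 kb from GR-cell-only sites, 23.4 kb from partly kept sites and 19.2 kb from core sites. Another such site lay within 10 kb for 22.1%, 27.8% and 32.1% of them. Other places with an MR/GR-cell peak were farther away too. At least 1 lay within 10 kb of 10.4% of GR-cell-only sites (9.94 to 10.9), 21.1% of partly kept sites (19.98 to 22.3) and 29.4% of core sites (27.8 to 31.1). The value of GR-cell-only sites was that of all 32074 sites without an MR/GR-cell peak, of which 10.6% had an MR/GR-cell peak within 10 kb, so it does not set them apart from less reproducible GR-cell sites. The median distance to the nearest MR/GR-cell peak was 86.9 kb, and 53.4% of GR-cell-only sites had one within 100 kb and 97.2% within 1 Mb.

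The class of a close neighbour differed between the classes of sites. Among sites whose nearest other reproducible GR-cell site lay within 10 kb, that neighbour was GR-cell-only for 68.2% of GR-cell-only sites (2271 of 3332, 66.6 to 69.7). It was GR-cell-only for 48.9% of partly kept sites (662 of 1354, 46.2 to 51.6) and 39.5% of core sites (383 of 969, 36.5 to 42.6). With a neighbour up to 3 kb away the shares were 71.9%, 44.9% and 28.4%. The shares drew together with distance, to 67.6%, 54.5% and 54.0% at 10 to 30 kb and to 69.1%, 65.5% and 59.4% at 30 to 100 kb. At 100 to 300 kb they were 69.1%, 71.0% and 68.4%, near the 65.6% of all reproducible GR-cell sites. Most of the dependence on distance lay in the core and partly kept sites, since the share around GR-cell-only sites was between 66.8% and 75.5% in every bin. Neighbours are not independent of each other, and the intervals cover counting error over sites only.

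**Figure D3:**
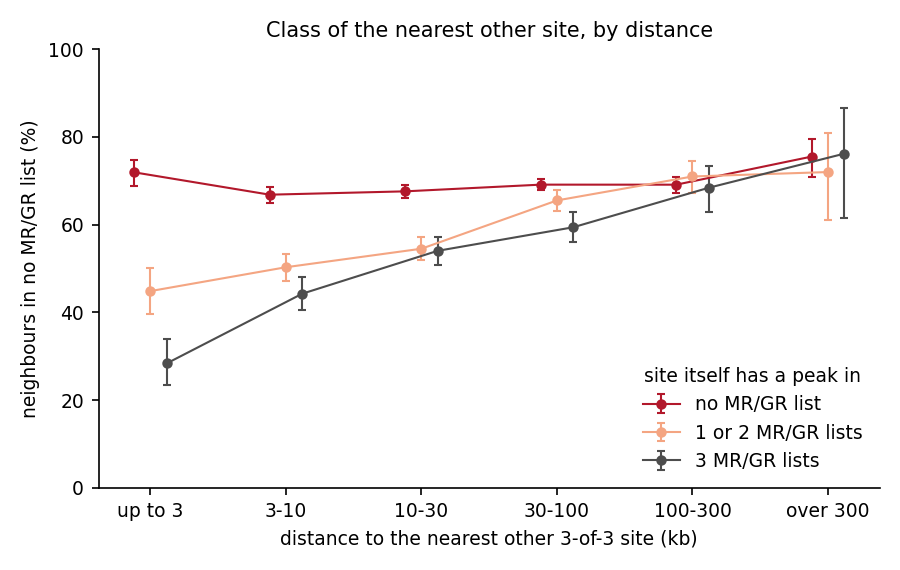
Share of nearest neighbours that are GR-cell-only (vertical axis, %, bars are Wilson 95% intervals) by the distance to that neighbour in kb (horizontal axis), for sites with a peak in no, 1 or 2, or all 3 MR/GR-cell lists. The classes stand at 71.9%, 44.9% and 28.4% up to 3 kb and at 69.1%, 71.0% and 68.4% at 100 to 300 kb.

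Some GR-cell-only sites lay close to a site kept in the MR/GR cell. Within 10 kb, 397 GR-cell-only sites (11.9% of the 3332 with a neighbour) had a core site as their nearest reproducible neighbour, where core sites were 13.2% of all reproducible sites. Such pairs hold a site found in all 6 lists and one found in the GR cell alone at a distance of a few kb.

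Most GR-cell-only sites had no other GR-cell-only site close by. Chained at distances of up to 10 kb, 12713 of them (84.4%) had no other GR-cell-only site in reach, 1950 were in pairs and 321 in groups of 3. Another site of at least 1 GR-cell list, of any class, lay within 10 kb of 35.6% of GR-cell-only sites. For partly kept and core sites this was 42.1% and 46.0%. Only 13 groups of chained GR-cell-only sites had 4 members and 4 groups had 5, and none was larger. The groups of 5 with the lowest chromosome numbers were chr2:19007800-19025427, chr3:156827675-156847888 and chr7:106344663-106374906. They spanned 17.6, 20.2 and 30.2 kb, and the remaining group of 5, at chr17:80220253-80243468, spanned 23.2 kb. That group on chromosome 17 held 1 other reproducible GR-cell site and 1 MR/GR-cell peak, with 5 MR/GR-cell peaks within 100 kb. None of the other 3 groups held another reproducible GR-cell site or an MR/GR-cell peak. The groups on chromosomes 2 and 7 had no MR/GR-cell peak within 100 kb either, while the one on chromosome 3 had 2. The next group clear of MR/GR-cell peaks over 100 kb had 4 members, at chr3:112979318-112994446. In the chromosome 2 group the sites had their centres 0.226, 7.87, 13.5, 14.8 and 17.4 kb from its start, and no other merged site lay between them.

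Longer stretches with few or no MR/GR-cell peaks were found on chromosome X and elsewhere. The longest run of consecutive reproducible GR-cell sites that were all GR-cell-only had 38 sites over 5978 kb at chrX:71932192-77910403. In that stretch the MR/GR-cell lists held 0, 1 and 0 peaks, and the GR-cell lists 68, 60 and 42. The next run, of 32 sites, was on the same chromosome (chrX:55164668-64910725) and held no MR/GR-cell peak, against 65, 49 and 44 GR-cell peaks. The run after that had 30 sites on chr7:65927297-68910856, with 1 MR/GR-cell peak. Runs of 10 or more numbered 193 and held 2672 GR-cell-only sites, or 17.7%. All runs were picked for having no MR/GR-cell peak at their sites, so low MR/GR-cell counts inside them follow largely from that choice. GR-cell-only sites were 65.6% of reproducible GR-cell sites, and how many long runs that share alone would give was not tested.

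**Figure D4:**
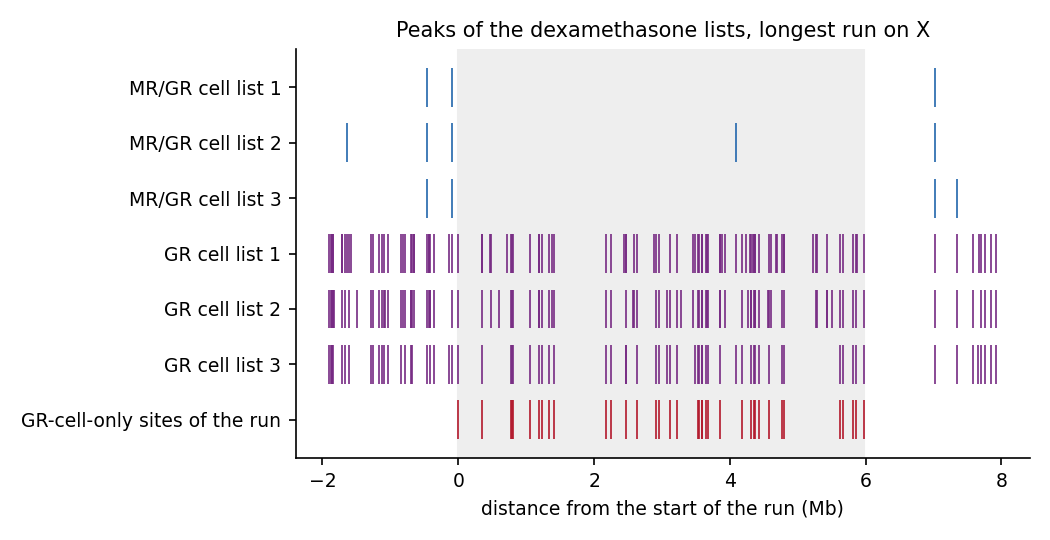
Peaks of the 3 MR/GR-cell lists (top), the 3 GR-cell lists and the GR-cell-only sites of the run (bottom) by distance in Mb from the start of the longest run on chromosome X; each tick is a peak or site, and grey marks the run. The 38 sites of the run lie in a stretch with 68, 60 and 42 GR-cell peaks and a single MR/GR-cell peak. The run was picked for having no MR/GR-cell peak at these sites.

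In windows of 1 Mb, 2770 windows had a GR-cell-only site, with a median of 5. Of these windows, 393 (14.2%) had no MR/GR-cell peak, and they held 1363 GR-cell-only sites, or 9.05%. Most GR-cell-only sites thus lay in windows where GR was found in the MR/GR cell at some other place. This does not set them apart from less reproducible sites in no MR/GR-cell list. An MR/GR-cell peak lay within 1 Mb of 97.18% of GR-cell-only sites, against 96.86% of such sites in 2 GR-cell lists and 96.85% in 1. Among windows with no MR/GR-cell peak, the highest number was 15, at 67000001 to 68000000 on chromosome 7. It was followed by 13 at 248000001 to 249000000 on chromosome 1 and 13 at 57000001 to 58000000 on chromosome X. Windows at 5000001 to 6000000 on chromosome 4 and 131000001 to 132000000 on chromosome 6 had 11 each. These windows were picked for having no MR/GR-cell peak, so all their reproducible GR-cell sites are GR-cell-only by construction. Leaving out 14 sites on sequences with no MR/GR-cell peak at all, the GR-cell-only sites farthest from such a peak lay on chromosome 13, at 61169280 to 61169703 (5830 kb away), 59302135 to 59302558 (5717 kb) and 58156370 to 58156934 (4572 kb).

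GR-cell-only sites were found on each of the 23 chromosomes compared (the autosomes and X), at shares of reproducible GR-cell sites between 58.8% on chromosome 22 (258 of 439, 54.1 to 63.3) and 80.9% on chromosome X (533 of 659, 77.7 to 83.7). The autosomes together stood at 65.2% (14506 of 22257, 64.5 to 65.8). After X came chromosomes 13 (70.8%, 66.8 to 74.5) and 14 (70.3%, 66.7 to 73.6), whose intervals overlap each other and not that of X. At the other end stood chromosomes 17 (59.5%) and 20 (60.5%). X also stood highest in each MR/GR-cell list taken alone, but these lists were used to choose the sites and may be technical repeats. Lists 1, 2 and 3 had no peak at 94.1%, 82.5% and 86.5% of the reproducible GR-cell sites of X, each the highest of 23 chromosomes.

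The vehicle lists were not used to choose the sites, but the rule asks for treated peaks in the GR cell and none in the MR/GR cell, which can set the direction of any difference between the lines. The values are therefore a description, with no test. Of the vehicle peaks of the MR/GR cell, 4 of 132, 0 of 11 and 1 of 40 lay at GR-cell-only sites (3.03%, 0% and 2.50%). In the GR cell with vehicle these were 24 of 122, 35 of 238 and 43 of 228 peaks (19.7%, 14.7% and 18.9%). All 3 MR/GR-cell values lay below all 3 GR-cell values. The means were 1.84% ± 1.62 in the MR/GR cell and 17.7% ± 2.66 in the GR cell (SD, n = 3 lists each). The difference was -15.9 percentage points, and -27.9 when at least 2 in place of 3 GR-cell lists were required of a site. The 3 lists of a line belong to 1 deposited sample. A count of 0 of 11 allows a share of up to 25.9% (Wilson), so list 2 of the MR/GR cell says little by itself.

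The same comparison was made for the other reproducible sites. At partly kept sites the vehicle peaks were 15.9%, 0% and 12.5% in the MR/GR cell and 21.3%, 16.4% and 11.8% in the GR cell. Here the lines overlapped, with a difference of -7.04 points. At core sites the difference was -0.406 points, with 1 peak in each MR/GR-cell list. Whether the differences differ between classes was not tested. The GR-cell-only sites lack an MR/GR-cell peak by rule, so a place that gives MR/GR-cell peaks with and without ligand cannot be among them.

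**Figure D5:**
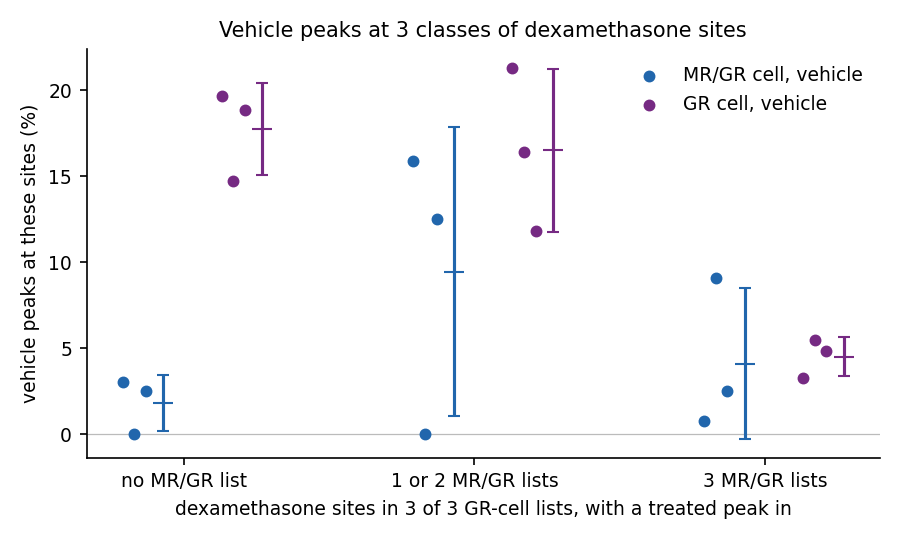
Share of vehicle peaks (vertical axis, %) that lie at reproducible GR-cell sites with a treated peak in no, 1 or 2, or all 3 MR/GR-cell lists (horizontal axis); points are lists, and the bars beside them mean ± SD (n = 3). At GR-cell-only sites the MR/GR-cell points lie between 0% and 3.03% and the GR-cell points between 14.7% and 19.7%.

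Few GR-cell-only sites were occupied without ligand in either line. A peak in at least 1 MR/GR-cell vehicle list was found at 5 of 15056 (0.0332%, 0.0142 to 0.0777), against 0.249% of all merged sites. It was found at 0.432% of partly kept sites (21 of 4862) and at 1 of 3017 core sites (0.0331%), about the value of GR-cell-only sites. A peak in at least 1 GR-cell vehicle list was found at 70 (0.465%, 0.368 to 0.587), against 0.787% of all merged sites. For partly kept sites the GR-cell value was 1.111% (54 of 4862, 0.852 to 1.45) and for core sites 0.729% (22 of 3017, 0.482 to 1.10). The difference between GR-cell-only and core sites, -0.264 points, kept its sign with any 1 list left out but varied in size. It was -0.0524 without GR-cell vehicle list 2, -0.0907 without treated MR/GR-cell list 2 and -0.135 without treated GR-cell list 2. The order turned when a peak in at least 2 GR-cell vehicle lists was required. Then 0.166% of GR-cell-only sites (25 of 15056) and 0.133% of core sites (4 of 3017) had one. With all 3 lists required the values were 0.0465% and 0.0663%. Of the reproducible GR-cell sites that GR-cell vehicle lists 1, 2 and 3 held, 44.4%, 40.2% and 53.1% were GR-cell-only, each below the 65.6% of all reproducible sites.

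Of the 70 sites with a GR-cell vehicle peak, 25 had one in at least 2 lists and 7 in all 3. By treated GR-cell peaks within 10 kb and then position, the first 5 of these 7 were chr1:42800824-42801247, chr6:79787911-79788342, chr11:46722156-46722579, chr17:17990966-17991446 and chr18:67872933-67873359. Each had no other treated GR-cell peak within 10 kb than its own 3. These places had a GR peak in all 6 GR-cell lists, with and without dexamethasone, and in no treated MR/GR-cell list. The nearest treated MR/GR-cell peak was 22.6, 247, 51.4, 51.8 and 15.6 kb away, in the same order of sites. The site on chromosome 17 also had a peak in MR/GR-cell vehicle list 1.

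The site at 17990966 on chromosome 17 was 1 of the 5 GR-cell-only sites with an MR/GR-cell vehicle peak, which were looked up after their count was seen. The others lay on chr5:125936380-125936933, chr9:35102856-35103353, chr17:37617319-37617779 and chr20:3140289-3140805. The peak was in MR/GR-cell vehicle list 1 at 4 of the 5 and in list 3 at the site at 37617319. The site on chromosome 5 also had a peak in 2 GR-cell vehicle lists, and the other 3 had none. Their 3 treated GR-cell centres spanned 66 to 165 bp, against a median of 51 bp over all GR-cell-only sites. The 70 sites with a GR-cell vehicle peak had a median span of 83 bp, with quartiles of 35.5 and 130 bp, while the 7 with a peak in all 3 vehicle lists had a median of 37 bp.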

How the data were processed

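GR ChIP-seq was analysed in 4 immunoprecipitations of 3 peak lists each, while the 2 input samples were not analysed themselves. The authors deposited start and end positions of peaks, with no score. Per the submitters' processing notes, HOMER 4.8.3, Picard 1.115, SAMtools 1.3.1, Trim Galore 0.4 and Bowtie served on hg19, their roles and settings not given in the sources used here. One list per numbered ChIP was called against input, per the list names, and the numbers come from those names. The labels give a dose of 100 nM for the GR-cell input and 0 nM for the MR/GR-cell input. They do not say which input served which list, and any effect of this difference between the lines was not tested.

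Overlapping peaks of the 6 treated lists were merged with Python 3.11.15, numpy 2.4.6 and pandas 2.3.3, and bedtools 2.31.1 gave the same 43713 sites. Distances run between centres. Wilson 95% intervals came from SciPy 1.17.1 and cover counting error only. A permutation test between the vehicle lists had been planned, and is left out because the choice of sites can set its direction. Tested on simulated peaks at all 43713 positions, the calls recovered 99.93% of the simulated GR-cell-only sites. The simulated peaks of a site always overlapped, and neither depth nor a calling threshold was simulated. The value is thus a check of the merging code and does not bear on whether a peak was missed. The sites, measures and classes were chosen with earlier results of these data known. Sites were named by a fixed rule (vehicle lists, gap to MR/GR-cell peaks, windows, runs and groups). Score thresholds, motifs, promoters and genes were not analysed here, since scores and hg19 sequence or annotation were not used.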

Additional observations from a re-analysis of the deposited data

How the results depend on the processing

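Of 136 alternatives, 107 left their value within the spread or limit set for it, and none changed the sign of a difference. Both counts include the alternatives for named sites given below. For the vehicle peak difference the limit was its sign and side of 0.05. A permutation test of 3 lists against 3 gives no p under 0.1, so only the sign could change there. Its alternatives count as unchanged whatever their size. The number of GR-cell-only sites ranged from 15125 to 19689 with 1 list left out, highest without GR-cell list 3. This was within 1.5 times the 15056, but leaving out a treated list loosens the rule, so the count could hardly fall. Their share of reproducible sites was 71.7% with at least 2 GR-cell lists required and 65.9% to 74.3% with 1 list left out, highest without MR/GR-cell list 2. The share within 10 kb of an MR/GR-cell peak was 11.4% with centres at most 100 bp apart, 0.518% for 1 kb, 53.4% for 100 kb, and 7.37% to 10.8% with 1 list left out. The neighbour difference between GR-cell-only and all kept sites, 23.2 points, was 34.7 for 1 kb, 14.3 for 100 kb and 18.9 to 25.1 with 1 list left out. The centre difference was 10.7 bp with centres at most 100 bp apart and 10 to 13 bp with 1 list left out. The vehicle occupancy difference was -0.114 points with at least 2 GR-cell lists and -0.294 to -0.0524 with 1 list left out. Requiring a peak in at least 2 GR-cell vehicle lists, which is not among the 136, turned its sign. The vehicle peak difference, -15.9 points, was -27.9 with at least 2 GR-cell lists required and -22.8 to -14.9 with 1 list left out. Blocking by list number (a replicate block) cannot change this difference of means, and nothing in the labels pairs the lists. Stability is read from size. Of the 45 alternatives for named sites, which are part of the 136, 40 kept the value and are part of the 107. The 3 sites nearest to an MR/GR-cell peak took in that peak when peaks up to 200 bp apart were merged, and with centres at most 100 bp apart the sites at 58156370 on chromosome 13 and 3140289 on chromosome 20 kept 2 GR-cell lists. Score thresholds, motif and promoter results were not run. Unknown depth limits every statement of absence.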
